A study of Mus musculus with 14 samples.

Results

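Regulatory T cell (Treg) cultures of mouse CD4+ T cells were compared with T helper 1 (Th1) cultures when both had been grown with acetate, on 2 Treg and 2 Th1 arrays of the 14 arrays in the series. The 4 arrays were chosen by their sample titles alone, so no measured value entered the choice. All 34945 probe sets with exactly 1 gene symbol were tested, and each of 18193 genes is described by whichever of its probe sets was brightest on average over the 14 arrays. With acetate, Treg cultures held more Foxp3, Nt5e, Ikzf2, Gzma, Ahr and Ighm mRNA than Th1 cultures and less Inhba, Atp6v0d2, Slc17a6 and Havcr2. The calls of Foxp3, Ikzf2, Gzma, Inhba, Slc17a6 and Havcr2 depended on single arrays. Of 399 genes that separated the same lineages without acetate, 40 passed again in the same direction with acetate. The lineage difference itself changed with acetate in 47 of 18193 genes (0.258%). Among them were 6 of 17 hypoxia response genes and 3 of 15 glycolysis genes. Most of the 47 calls were lost when single arrays were left out.

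CD4+ T cells came from spleen, peripheral lymph nodes and mesenteric lymph nodes of mice and were cultured for 5 days per the sample protocols, or 6 to 7 days per the design text. Every culture received human IL-2 at 100 U/ml. Treg cultures received human TGF-beta1 at 5 ng/ml, and Th1 cultures received mouse IL-12 at 10 ng/ml with an antibody against mouse IL-4 at 10 ug/ml. The acetate cultures of both lineages had an addition at 10 mM, which the design text calls sodium acetate and the protocols of these 4 samples call acetone; they are called acetate cultures here. The other groups compared here are 2 Treg and 2 Th1 cultures without that addition, called control cultures. Their comparison shares no array with the comparison under acetate. The series also holds 3 arrays of T helper 17 (Th17) cultures with an addition at 10 mM and 3 without it. Human TGF-beta1 at 5 ng/ml was given to these as well. The Th17 arrays were not compared here, but they entered the normalization, the choice of probe sets and the estimate of the spread. No strain, sex or age is given. Whether the arrays of a group stand for different mice or different cultures is not stated, so the p-values cover the spread among these samples alone, and that spread may be technical.

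Treg cells restrain other immune cells and are defined by the transcription factor Foxp3, which TGF-beta and IL-2 together induce in activated CD4+ T cells. Th1 cells are defined by the transcription factor T-bet, the product of Tbx21, and by interferon gamma, the product of Ifng, which IL-12 induces through STAT4. Acetate, a fermentation product of gut bacteria, can be taken up by T cells, joined to coenzyme A and used for metabolism and for histone acetylation. Polarised cultures are mixtures of cells, and fewer cells of a type cannot be told apart from less RNA per cell in such arrays.

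Values are signals after quantile normalization over the 14 arrays, written for replicate 1 and then replicate 2 of a group. Each log2 difference is Treg minus Th1 on the log2(signal + 3) scale, with n = 2 arrays in each group. Its standard error (SE) comes from the limma fit, which estimated the spread from all 14 arrays. The SE is thus not the spread of the compared arrays alone. The addition of 3 compresses the differences of genes with low signals. A difference was called when its limma p-value, adjusted by Benjamini-Hochberg over all 34945 probe sets, was under 0.05. The number of arrays limits the precision. The 4 arrays with acetate correlated with each other at r = 0.931 to 0.96 across probe sets, which are not independent replicates. Th1 acetate replicate 2 stood furthest from the rest. Its median correlation with the other arrays of the series was 0.924, against 0.942 to 0.946 for the other 3, and its correlation with its own replicate was 0.946. The 18S ribosomal RNA control probe set had deposited signals of 506 and 816 in the Treg and 879 and 1576 in the Th1 acetate arrays. The 3-prime to 5-prime ratio of the Gapdh control was 1.02 to 1.10 in all 4. In the control cultures that ratio was 1.22 and 1.23 in Treg against 1.05 and 0.998 in Th1 arrays. The ratio of the beta-actin control overlapped there, at 1.42 and 1.33 against 1.28 and 1.4. Their 18S signals were 3134 and 581.6 against 609 and 298.4. The part of RNA quality in the comparisons that use control arrays was not tested.

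The labels were first set against the genes that define the lineages. Foxp3 had signals of 51.9 and 66.0 in Treg acetate cultures and 12.7 and 12.8 in Th1 acetate cultures. Both Treg arrays lay above both Th1 arrays, with a log2 difference of 1.97 ± 0.37 (SE, adjusted p = 0.035). Without acetate the Foxp3 signals were 283 and 383 in Treg against 15.1 and 11.2 in Th1, which is 4.37 on the log2 scale (adjusted p = 4.79e-05). The Treg acetate arrays thus lay between the Th1 arrays and the Treg control arrays. The lineage difference with acetate minus that without, -2.40 ± 0.53, was not called (adjusted p = 0.101). Ifng had signals of 3773 and 1711 in Treg acetate and 8048 and 11910 in Th1 acetate cultures. The groups did not overlap, but their difference, -1.94 ± 1.00, was not called (adjusted p = 0.483). Tbx21 had signals of 159 and 219 against 391 and 489, and its difference, -1.22 ± 0.50, was not called either (adjusted p = 0.374). Foxp3 and Ifng thus stood in the order the labels give, Foxp3 with signals of 66.0 or less and Ifng with 1711 or more in each of the 4 arrays.

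**Figure D1:**
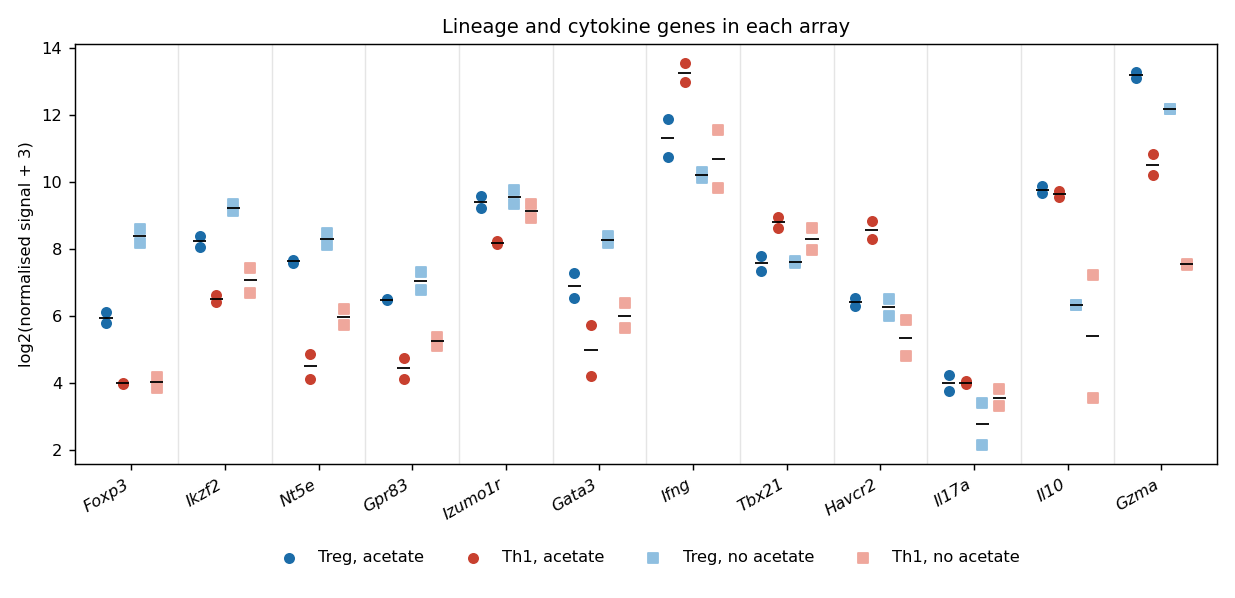
Quantile-normalised signals of lineage and cytokine genes, as log2(signal + 3), in the 2 arrays of each of 4 groups; points are arrays and black bars are group means. Foxp3, Ikzf2, Nt5e, Gpr83 and Izumo1r lie higher in both Treg acetate arrays than in both Th1 acetate arrays, Ifng and Havcr2 lie lower, and the groups overlap for Il17a and Il10.

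Of 34945 probe sets, 189 differed between Treg and Th1 cultures with acetate, which is 0.541%; 124 were higher and 65 lower in Treg cultures. An unadjusted p under 0.05 was found for 3993. Counted by gene, 87 of 18193 were higher in Treg cultures (0.478%) and 35 lower (0.192%). On the signals as deposited, without quantile normalization, 67 probe sets were called, 33 higher and 34 lower. Single arrays decided much of this count. It was 17 without Treg acetate replicate 1, 10 without Treg acetate replicate 2, 804 without Th1 acetate replicate 1 and 36 without Th1 acetate replicate 2. All 122 called genes kept the sign of their difference in each of those 4 fits. Where both Treg arrays lie on one side of both Th1 arrays, leaving out 1 array cannot change the sign, so this does not show stability. The median log2 difference of the 87 higher genes ranged from 1.63 to 2.06 and that of the 35 lower genes from -1.98 to -1.71. Many of the genes lost their call in those fits. The genes Ahr, Nt5e, Ighm, Isg20 and Atp6v0d2 were called in all 4 and under both other scalings.

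Among Treg markers, 5 of 18 were higher in Treg acetate cultures, where 0.478% of all genes were, and none was lower. The median log2 difference of the list was 0.61, against 0.00 for all genes, and 17 of the 18 were positive. Without Th1 acetate replicate 2 the median was 0.29 with 14 positive, and without Th1 acetate replicate 1 it was 1.05 with 18 positive. Nt5e encodes CD73, the surface enzyme that makes adenosine from AMP. Its signals were 201 and 188 in Treg and 26.2 and 14.2 in Th1 acetate cultures, a log2 difference of 3.14 ± 0.34 (adjusted p = 0.00114). Ikzf2 encodes Helios, an Ikaros family factor of Treg cells. Its signals of 263 and 332 stood against 94.6 and 82.1, a log2 difference of 1.71 ± 0.30 (adjusted p = 0.0243). For the orphan receptor gene Gpr83 the signals were 85.7 and 86.5 against 23.7 and 14.4, and for Izumo1r, which encodes the folate receptor-like protein FR4 of Treg cells, 590 and 766 against 294 and 276. Their log2 differences were 2.05 and 1.23, and in both genes all Treg values exceeded all Th1 values. The other probe set of Gpr83 gave 0.88 (adjusted p = 0.405). The activation-linked members did not pass, with log2 differences of 0.50 for Ctla4, 0.77 for Tnfrsf18, 0.27 for Tnfrsf4 and -0.45 for Il2ra, whose signals of 1640 and 1267 overlapped 2889 and 1337. Nrp1, which was called without acetate at 1.36, had a log2 difference of 0.01 with acetate. Except for Nt5e, the calls of these markers depended on single arrays: Foxp3, Ikzf2, Gpr83 and Izumo1r did not pass without Treg acetate replicate 1 (adjusted p of 0.174, 0.139, 0.215 and 0.174), without Treg acetate replicate 2 (0.323, 0.274, 0.281 and 0.434) or without Th1 acetate replicate 2 (0.193, 0.176, 0.284 and 0.264), and on the signals as deposited (0.162, 0.0873, 0.083 and 0.253).

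Among 21 Th1 markers, none was higher in Treg acetate cultures and 1 was lower, Havcr2, where 0.192% of all genes were. The median of the list was -0.73 and 16 differences were negative. Without Th1 acetate replicate 2 the median was -0.36 with 7 positive. Havcr2 encodes TIM-3, an inhibitory receptor of Th1 cells. Its signals were 75.5 and 90.1 in Treg and 311 and 448 in Th1 acetate cultures, a log2 difference of -2.14 ± 0.43 (adjusted p = 0.0409). It was not called without acetate (0.91), and the test of the change gave -3.04 (adjusted p = 0.0642). The call of Havcr2 was lost without Treg acetate replicates 1 and 2 and without Th1 acetate replicate 2, at adjusted p of 0.257, 0.274 and 0.338, and with a pseudocount of 1 (0.0513) or the replicate block (0.0623). The receptor subunit genes Il12rb1 and Il12rb2, through which IL-12 acts, were lower in Treg cultures without acetate, at -1.09 and -1.58, and were not called with it, at -0.68 and -0.79. Lta, which encodes lymphotoxin, was called at -2.54 without acetate and was at -0.73 with it. For Il12rb1, Il12rb2 and Lta the change was not called. Members with the opposite sign were Cxcr3 (1.91, adjusted p = 0.101), Stat4 (0.38), Runx3 (0.78) and Hlx (0.89). Hlx was the sole member of the list whose change was called, at 4.30 (adjusted p = 0.0344, and 0.0642 on the signals as deposited). The granzyme gene Gzmb was near the top of the signal range in all 4 arrays, from 12200 to 12620, with a log2 difference of 0.00.

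Genes of other helper lineages were set beside these. Of 10 Th17 markers, 3 were higher in Treg acetate cultures, where 0.478% of all genes were, and none lower. The median of the list was 0.23 with 6 positive, and -0.042 with 4 positive without Th1 acetate replicate 2. Ahr encodes a receptor for aromatic ligands and a transcription factor of Th17 and some Treg cells. It had signals of 108 and 229 against 22.5 and 8.22 (3.25 ± 0.36, adjusted p = 0.00114). A further probe set of Ahr gave 1.89 (adjusted p = 0.209). The other 2 were the chemokine gene Ccl20 and the gene of its receptor, Ccr6. Ccl20 was at 44.3 and 21.0 against 1.42 and 2.35, and Ccr6 at 45.5 and 15.2 against 5.21 and 4.46. On the signals as deposited both had an adjusted p of 0.0745. With a pseudocount at the 50th percentile their adjusted p was 0.179 and 0.112. Il17a itself was at 10.5 and 15.8 against 13.5 and 12.6, with a log2 difference of -0.01. Gata3, the Th2 factor, had signals of 88.9 and 151 against 50.1 and 15.5. The groups did not overlap, and the difference, 1.92 ± 0.44, fell short of the threshold (adjusted p = 0.0695). The adjusted p of Gata3 was 0.00607 without Th1 acetate replicate 1, 0.527 without Th1 acetate replicate 2, and 0.208 and 0.522 without Treg acetate replicates 1 and 2. Il10, the gene of a suppressive cytokine, was at 806 and 927 against 746 and 843, a log2 difference of 0.12. Il2 (0.23) and Il4 (0.77) did not pass.

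The 2 polarising signals leave target genes that were counted as lists. Of 21 genes of the TGF-beta response, 1 was called higher, where 0.478% of all genes were. This was Skil, which encodes a feedback inhibitor of Smad proteins. Its signals were 482 and 653 in Treg and 220 and 158 in Th1 acetate cultures (1.57 ± 0.27, adjusted p = 0.0243). It was called without acetate too, at 1.41. A further probe set of Skil gave 0.51 with acetate (adjusted p = 0.711). The receptor gene Tgfbr2 had signals of 350.0 and 420 against 242 and 198, and its difference, 0.80, was not called (adjusted p = 0.0634). The list had a median of 0.52 with acetate and 0.13 without, and of 0.36 and 0.33 on the signals as deposited, where Skil was not called (adjusted p = 0.0835). Without Treg acetate replicates 1 and 2 and Th1 acetate replicate 2 Skil was not called either (adjusted p of 0.11, 0.281 and 0.209), and without Th1 acetate replicate 1 the list had 6 members called higher. Of 15 genes of the IL-12 and STAT4 response none was called in either direction with acetate. Without it 3 were higher and 3 lower in Treg cultures, where 1.26% and 0.929% of all genes were.

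The largest differences among called genes above the low-signal level were then ranked. Fam183b, a gene of ciliated cells, led the higher genes with signals of 142 and 156 in Treg and 8.51 and 0.831 in Th1 acetate cultures, a log2 difference of 4.51 ± 0.57 (adjusted p = 0.00326). It was followed by Selenbp1, which encodes a selenium-binding enzyme, at 680 and 820 against 79.7 and 16.8 (4.21 ± 0.63, adjusted p = 0.0107). Without acetate neither gene separated the lineages, at 0.09 and -0.54. Ighm, the gene of the IgM heavy chain constant region, had signals of 838 and 1555 against 87.7 and 62.7 (3.89 ± 0.43, adjusted p = 0.00114). The growth factor gene Igf1 had signals of 49.1 and 61.9 against 0.738 and 2.12, so its log2 difference of 3.73 rests on Th1 values near the bottom of the scale. Next in order were Bend5 (3.61), 9130015A21Rik (3.33), Tmem45a (3.32), Ahr (3.25), Nt5e (3.14), the protein kinase A subunit gene Prkar1b (3.12) and Ascl2 (3.11), which encodes a factor of follicular helper cells. The last 4 were Plcxd1 (2.86), Ccl20 (2.79), the innate immunity gene Pglyrp1 (2.77) and Gpr15 (2.73), which encodes a receptor for homing to the large intestine. The Th1 values of several of these genes differed between the replicates. Selenbp1, Bend5 and Prkar1b were at 79.7, 22.2 and 37.2 in Th1 acetate replicate 1 and at 16.8, 3.54 and 3.11 in replicate 2.

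Gzma, a granzyme gene usually linked to cytotoxic cells, was called at 8733 and 9985 in Treg and 1168 and 1797 in Th1 acetate cultures (2.69 ± 0.44, adjusted p = 0.0212). It separated the lineages without acetate as well, at 4644 and 4583 against 181 and 183. Of 17 cytotoxic granule genes only Gzma and Lamp1, a lysosome membrane gene, were called higher, where 0.478% of all genes were, and none lower. The perforin gene Prf1 had a log2 difference of -1.06 and Gzmc one of 1.13, and neither passed. Of 26 homing receptors and integrins, 3 were higher, where 0.478% of all genes were, and none lower. These were Ccr6, Gpr15 and Itgb3, an integrin chain gene at 181 and 309 against 69.4 and 51.0. The lymph node homing receptor gene Ccr7 was at 1528 and 1910 against 734 and 122, and its difference, 2.49, was not called (adjusted p = 0.0552). Klf2, which encodes a factor that keeps T cells circulating, was higher by 2.66, at 117 and 262 against 30.7 and 20.5. The calls of Gzma, Gpr15, Itgb3 and Klf2 were lost without either Treg acetate array and without Th1 acetate replicate 2.

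On the lower side, the metallothionein gene Mt4 had the largest difference, -3.92 ± 0.80 (adjusted p = 0.0442). Its signals were 11.8 and 8.01 in Treg and 81.0 and 446 in Th1 acetate cultures. The call of Mt4 was lost with a pseudocount of 1 (adjusted p = 0.0939) and with the replicate block (0.0773). Without Th1 acetate replicate 2 its difference was -2.715. The vesicular glutamate transporter gene Slc17a6 was at 4.57 and 10.8 against 99.2 and 143 (-3.58). Inhba, which encodes the subunit of activin A, a ligand of the TGF-beta family, was at 55.6 and 20.2 against 401 and 369 (-3.39 ± 0.61, adjusted p = 0.0262). Atp6v0d2, a subunit gene of the vacuolar proton pump, had the smallest p-value of all genes, with signals of 34.9 and 45.9 against 341 and 326 (-2.97 ± 0.28, adjusted p = 4.26e-04). The protease inhibitor gene Serpinb9b (-3.28), Prag1 (-3.11), the ETS factor gene Etv5 (-2.95) and the kinase gene Dclk1 (-2.84) came next. They were followed by Nebl (-2.40) and Crabp2 (-2.22), which encodes a retinoic acid carrier. The next brightest probe set of Nebl gave -0.41 (adjusted p = 0.739). The remaining genes in this ranking were Epn2 (-2.17), Ms4a6d (-2.14), Havcr2 (-2.14), Timd2 (-2.04) and Cdc42ep3 (-1.87). In this ranking Atp6v0d2 alone kept its call in each fit without 1 acetate array. In those fits the difference of Slc17a6 ranged from -4.01 to -3.15 and that of Inhba from -4.06 to -2.725. Cdkn2a, which encodes cell cycle inhibitors, was also called, at 0.821 and 5.67 in Treg against 28.6 or more in Th1 acetate cultures (-2.83). It was at or below 1.47 in the 4 control arrays, and its mean lay below the low-signal level. Its call was lost with a pseudocount of 1 (adjusted p = 0.121), the trimmed mean (0.0569) and the replicate block (0.0633), and kept on the signals as deposited (0.0465). In the fits without 1 acetate array its difference ranged from -3.42 to -2.24.

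**Figure D2:**
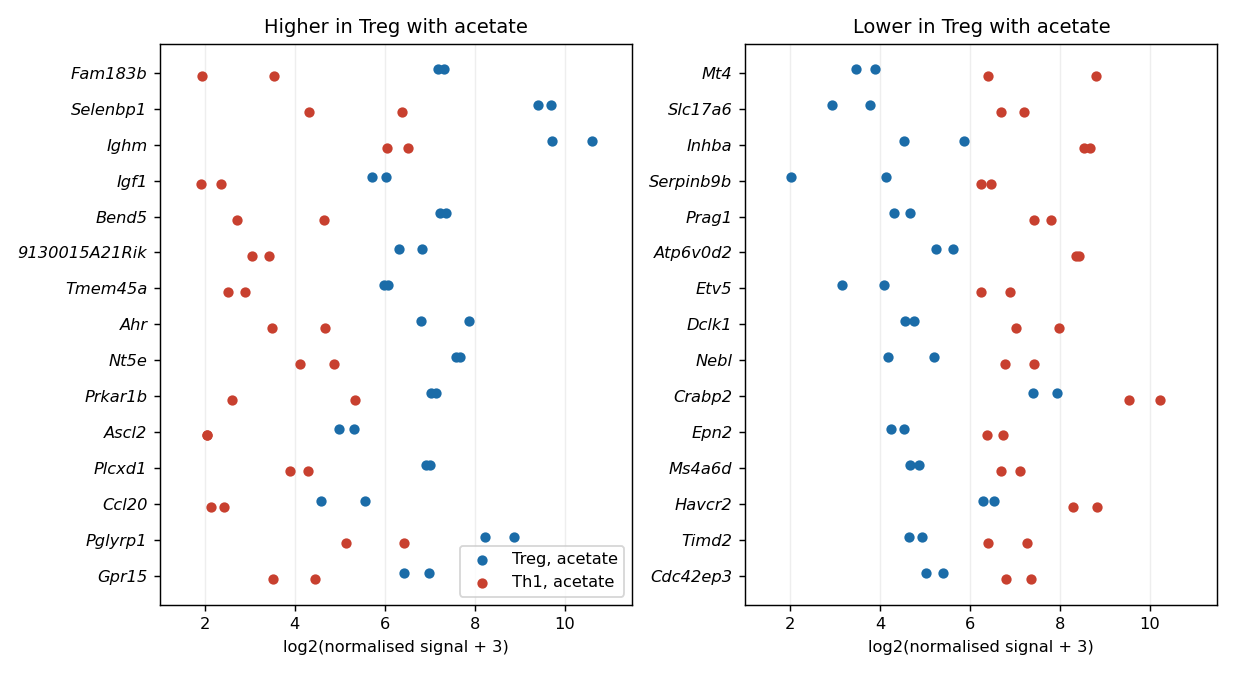
The 15 largest called differences in each direction between Treg and Th1 cultures with acetate, as log2(normalised signal + 3); each point is 1 array. In every gene shown both Treg arrays lie on the same side of both Th1 arrays, which the choice of these genes required, and the 2 Th1 arrays lie far apart for Selenbp1, Prkar1b and Mt4.

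Which lineage differences stood under acetate was asked from both directions. Without acetate, Treg cultures exceeded Th1 cultures in 230 of 18193 genes (1.26%) and lay below them in 169 (0.929%). The probe sets called there, 613 in all, numbered 110 and 120 without Treg control replicates 1 and 2, 299 and 381 without Th1 control replicates 1 and 2, and 240 on the signals as deposited. Of the 230, 34 were called higher with acetate as well (14.8%) and 213 had the same sign. In 167 (72.6%) both Treg acetate arrays lay above both Th1 acetate arrays. Over all 18193 genes this was so in 3824, and in 3573 both lay below. Their median log2 difference was 1.62 without acetate and 0.67 with it. Of the 169 lower genes, 6 were called lower with acetate, 4 were called higher, 109 had the same sign, and the median went from -1.51 to -0.17. Both Treg acetate arrays lay below both Th1 acetate arrays in 69 of them (40.8%) and above in 38. Read the other way, 34 of the 87 genes higher in Treg acetate cultures (39.1%) and 6 of the 35 lower ones were called in that direction without acetate. A call missing in a comparison does not show that a gene did not differ there. Over all 18193 genes the correlation between the 2 differences was r = 0.169, a description across genes within the same arrays.

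The 34 shared higher genes included Foxp3, Ikzf2, Nt5e, Gpr83, Ahr, Ccl20, Ccr6, Gpr15, Itgb3, Klf2, Gzma and Skil. By size they were led by Ighm, Morc1, Ahr, Nt5e, Ccl20, Gpr15, Sema6d and Gzma. Morc1 had signals of 30.3 and 43.7 against 1.73 and 0.176 with acetate, a log2 difference of 3.35, and 3.18 without. Sema6d, a semaphorin gene, was at 100.1 and 77.1 against 5.43 and 19.6 with acetate (2.72) and at 3.34 without. The 6 shared lower genes were Slc17a6, Inhba, Atp6v0d2, the mitochondrial carbonic anhydrase gene Car5b (-1.84), Tmem159 (-1.26) and Nabp1 (-1.02). Atp6v0d2 was lower by a log2 difference of -1.67 without acetate, Inhba by -2.88 and Slc17a6 by -2.92. The number of shared genes was 10 on the signals as deposited, and 5, 5, 96 and 10 without Treg acetate replicates 1 and 2 and Th1 acetate replicates 1 and 2. It was 7 and 8 without Treg control replicates 1 and 2 and 23 without Th1 control replicate 1.

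**Figure D3:**
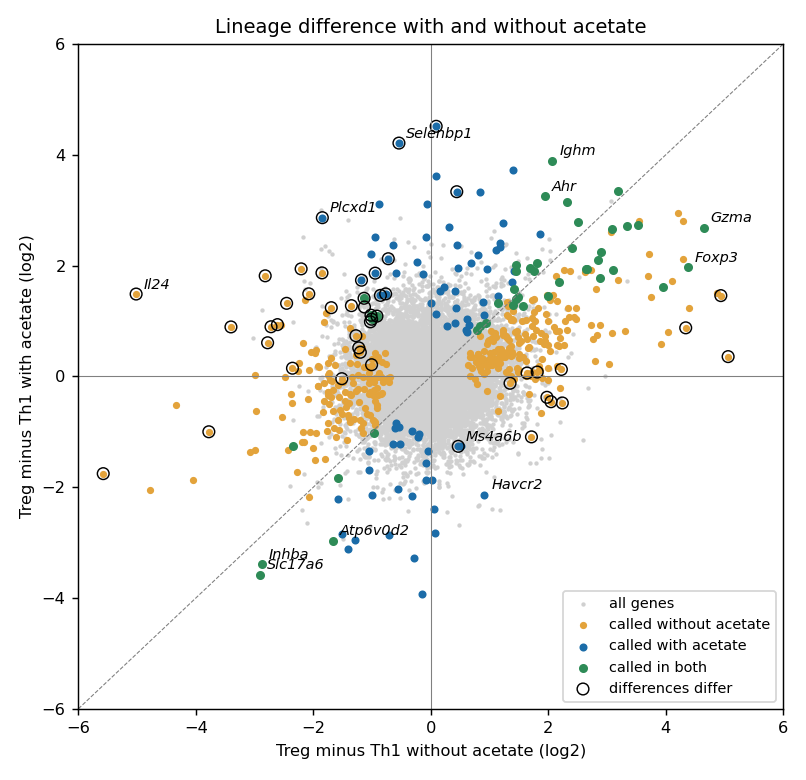
Treg minus Th1 log2 difference of each of 18193 genes without acetate (horizontal axis) and with acetate (vertical axis), with the dashed line marking equal differences. Colours mark genes called in either comparison or in both, and rings mark the 47 genes whose 2 differences differ; many ringed genes lie at the upper left, lower in Treg cultures without acetate and higher with it.

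The change of the lineage difference was tested directly, as the difference with acetate minus the difference without. It was called for 47 of 18193 genes (0.258%), 35 with a more positive and 12 with a more negative value with acetate. In 36 of the 47 the 2 differences had opposite signs, 14 were called with acetate and 35 without. Il24, the gene of a cytokine of the IL-10 family, had the largest and most certain change. Its signals were 2063 and 1095 in Treg and 1000 and 285 in Th1 cultures with acetate, against 18.5 and 14.1 and 638 and 597 without. The Treg arrays were thus the lowest of the 4 groups without acetate and the highest with it. The lineage difference was -5.02 without acetate (adjusted p = 4.55e-05) and 1.49 with it (adjusted p = 0.153), and the change of 6.50 ± 0.58 passed (adjusted p = 4.49e-04). Il24 kept this call in each fit without 1 of the 8 Treg and Th1 arrays. Probe sets called for the change numbered 66 in all, 6 on the signals as deposited, and 1, 5, 311 and 4 without Treg acetate replicates 1 and 2 and Th1 acetate replicates 1 and 2. Without Treg control replicates 1 and 2 and Th1 control replicates 1 and 2 they were 14, 4, 17 and 1.

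The leukotriene receptor gene Cysltr1 had signals of 214 and 139 against 81.3 and 55.8 with acetate and of 52.1 and 29.6 against 260 and 202 without, a change of 3.77 ± 0.47 (adjusted p = 0.00859). Fcmr, the gene of an IgM Fc receptor, changed by 3.54 and the transcription factor gene Batf3 by 2.78. Batf3 was at 796 and 424 against 1165 and 1164 with acetate and at 83.3 and 56.1 against 1147 and 832 without, and its lineage difference of -3.78 without acetate was not called with it. H2-Q10, a class I histocompatibility gene, had 411 and 416 against 374 and 373 with acetate, a difference of 0.15 where it had been -2.35. The genes Bsg, Higd1a, Syce2 and Pcx were called in opposite directions in the 2 comparisons. Bsg encodes basigin, a partner of lactate transporters, and was at 3354 and 3354 against 1994 and 1218 with acetate and at 965 and 872 against 1795 and 1932 without. Pcx encodes pyruvate carboxylase and had log2 differences of 1.41 with and -1.14 without acetate, and those of Syce2 were 1.03 and -1.01. The 8 largest genes called both with acetate and for the change were Fam183b, Selenbp1, 9130015A21Rik, Plcxd1, Cox7a1, Plcd1, Rab33a and Egln1, all higher in Treg acetate cultures. In Fam183b and Selenbp1 the 2 Th1 acetate arrays lay below all Treg and Th1 control arrays. Ms4a6b was the sole gene called lower with acetate whose change was called, at 552 and 691 against 1636 and 1348 (-1.26) after 2998 and 3263 against 2285 and 2238 without acetate.

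Changes toward a more negative value were fewer. The interferon-induced GTPase gene Irgm1 had signals of 509 and 552 in Treg and 114 and 106 in Th1 control cultures, and of 39.3 and 94.7 against 81.0 and 92.7 with acetate. Its lineage difference went from 2.24 to -0.48, a change of -2.72 (adjusted p = 0.048). Pdcd1, the gene of the inhibitory receptor PD-1, and Slamf6, a receptor gene of T cells, changed by -2.50 and -2.35. On the signals as deposited Irgm1, Pdcd1 and Slamf6 had adjusted p of 0.116, 0.111 and 0.124. Among 9 interferon-gamma inducible GTPases the change was called for Irgm1 alone. Of the 9, 4 were called higher in Treg cultures without acetate, where 1.26% of all genes were, and none with it, where 0.478% were. Their median was 1.76 without acetate and 0.48 with it, but the latter was 0.90 and -0.051 without Treg acetate replicates 1 and 2 and 0.93 and -0.13 without Th1 acetate replicates 1 and 2. Of 20 other interferon response genes 4 were called higher without acetate and none with it, and the change was called for 0 of them.

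Cells short of oxygen stabilise the factor HIF-1, which binds a short DNA core in gene promoters and raises genes of glycolysis, of oxygen sensing and of collagen and mitochondrial remodelling. T cells raise the same genes upon activation. Of 17 hypoxia response genes, 2 were called higher in Treg acetate cultures, Egln1 and Higd1a, where 0.478% of all genes were. None was called lower, and 15 were positive with a median of 1.49. Without acetate 5 were called lower, where 0.929% of all genes were, and the median was -0.92. The change was called for 6 of the 17, Bnip3, Egln1, Egln3, Ero1a, P4ha2 and Higd1a, where 0.258% of all genes were. These calls were not stable. In the 8 fits that each left out 1 Treg or Th1 array, Bnip3 was called in 3, Higd1a in 2 and Egln1, Egln3, Ero1a and P4ha2 in 1, and on the signals as deposited the 6 had adjusted p from 0.05 to 0.225. The 0.05 as deposited was that of Bnip3, a rounded value at the threshold that does not tell whether it was called. Egln1 encodes the main oxygen sensor prolyl hydroxylase. It had signals of 725 and 704 in Treg and 318 and 201 in Th1 acetate cultures. Without acetate they were 319 and 317 in Treg and 446 and 662 in Th1 cultures. Higd1a encodes a mitochondrial protein induced by hypoxia, at 2643 and 2836 against 1565 and 1058 with acetate and at 1098 and 1141 against 2063 and 2170 without. Bnip3, the gene of a mitophagy receptor, was at 3182 and 3092 against 1407 and 522 with acetate and at 687 and 411 against 1448 and 2563 without. In all 3 genes both Treg arrays were the higher ones with acetate and the lower ones without. Their changes were 2.26, 2.00 and 3.72. The hydroxylase genes P4ha2 and Egln3 and the oxidoreductase gene Ero1a changed by 4.63, 3.62 and 3.57. Hif1a itself had log2 differences of -0.11 with and -0.12 without acetate.

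The promoters of Bnip3, Egln1 and Higd1a are shown as examples of the changed hypoxia genes, with the core letters of the HIF binding site marked. The list is made of genes known to respond to hypoxia, so these letters are part of what such genes are known for and bear on no cause of the differences. Each sequence runs from 250 bases before to 50 bases after the annotated gene start, is taken from RefSeq, and has the motif ACGTG, or its reverse complement CACGT, in capitals; where both overlap, the capitals run together.
Bnip3 promoter, mouse GRCm38.p6, chr7:138909457-138909756, minus strand: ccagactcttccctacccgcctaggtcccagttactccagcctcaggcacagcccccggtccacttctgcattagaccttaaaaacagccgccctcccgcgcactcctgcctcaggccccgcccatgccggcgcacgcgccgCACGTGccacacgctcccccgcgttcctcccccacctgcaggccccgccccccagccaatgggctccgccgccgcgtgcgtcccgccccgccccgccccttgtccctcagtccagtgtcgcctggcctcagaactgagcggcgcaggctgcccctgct
Egln1 promoter, mouse GRCm38.p6, chr8:124949205-124949504, minus strand: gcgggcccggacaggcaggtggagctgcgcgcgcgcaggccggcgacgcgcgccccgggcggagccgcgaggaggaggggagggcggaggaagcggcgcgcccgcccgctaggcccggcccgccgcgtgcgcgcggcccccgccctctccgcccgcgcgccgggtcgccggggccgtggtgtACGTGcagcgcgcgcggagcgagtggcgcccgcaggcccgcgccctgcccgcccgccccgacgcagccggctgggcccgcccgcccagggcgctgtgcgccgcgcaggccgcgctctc
Higd1a promoter, mouse GRCm38.p6, chr9:121857747-121858046, minus strand: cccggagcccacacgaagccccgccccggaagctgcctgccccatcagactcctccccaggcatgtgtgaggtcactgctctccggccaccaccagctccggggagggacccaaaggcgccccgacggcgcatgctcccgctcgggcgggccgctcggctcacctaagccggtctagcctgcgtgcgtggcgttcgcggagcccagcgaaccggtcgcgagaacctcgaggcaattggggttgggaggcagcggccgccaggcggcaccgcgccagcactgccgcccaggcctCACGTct
The motif was searched on both strands, and no other form of the core was searched. It was in the promoter of each of the 6 genes whose change was called, and in 13 of 22 promoters of the whole list (59.1%), which includes members whose change was not called. Of 32851 promoters of the same length over all genes, 19.6% held it. The promoters of the 6 genes are also rich in G and C, with a median of 72.2% against 52.7% for all promoters, and the part of base composition in the match was not tested. A match is not a bound site, and its absence in a window says nothing about the factor.

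Glycolysis genes were counted in the same way. Of 15, none was called with acetate, 14 were positive and the median was 0.47. Without acetate 4 were called lower, where 0.929% of all genes were, and the median was -0.97. The change was called for 3, where 0.258% of all genes were. These were the phosphofructokinase gene Pfkl (2.01), the isomerase gene Tpi1 (1.64) and the mutase gene Pgam1 (1.74). Their adjusted p on the signals as deposited was 0.317, 0.323 and 0.387, and of the 8 fits without 1 array they were called in 1, 3 and 2. Tpi1 had signals of 3452 and 3520 against 2759 and 2407 with acetate and of 1961 and 1427 against 3361 and 4403 without. The glucose transporter gene Slc2a3 had 2863 and 2759 against 1013 and 717 with acetate, a difference of 1.72 that was not called (adjusted p = 0.109). The lactate exporter gene Slc16a3 (1.12) did not pass. In most genes of the hypoxia list Th1 acetate replicate 2 was lower than replicate 1, and without replicate 2 the median of the list was 0.94, none of its members was called and 15 were positive. Without Th1 acetate replicate 1 the median was 1.74 and 9 were called. The glycolysis median ranged from 0.34 to 0.62 when single acetate arrays were left out, at 0.34 without Th1 acetate replicate 2. Without Th1 acetate replicate 2, Egln1 and Higd1a had adjusted p of 0.339 and 0.242, and on the signals as deposited 0.138 and 0.378.

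**Figure D4:**
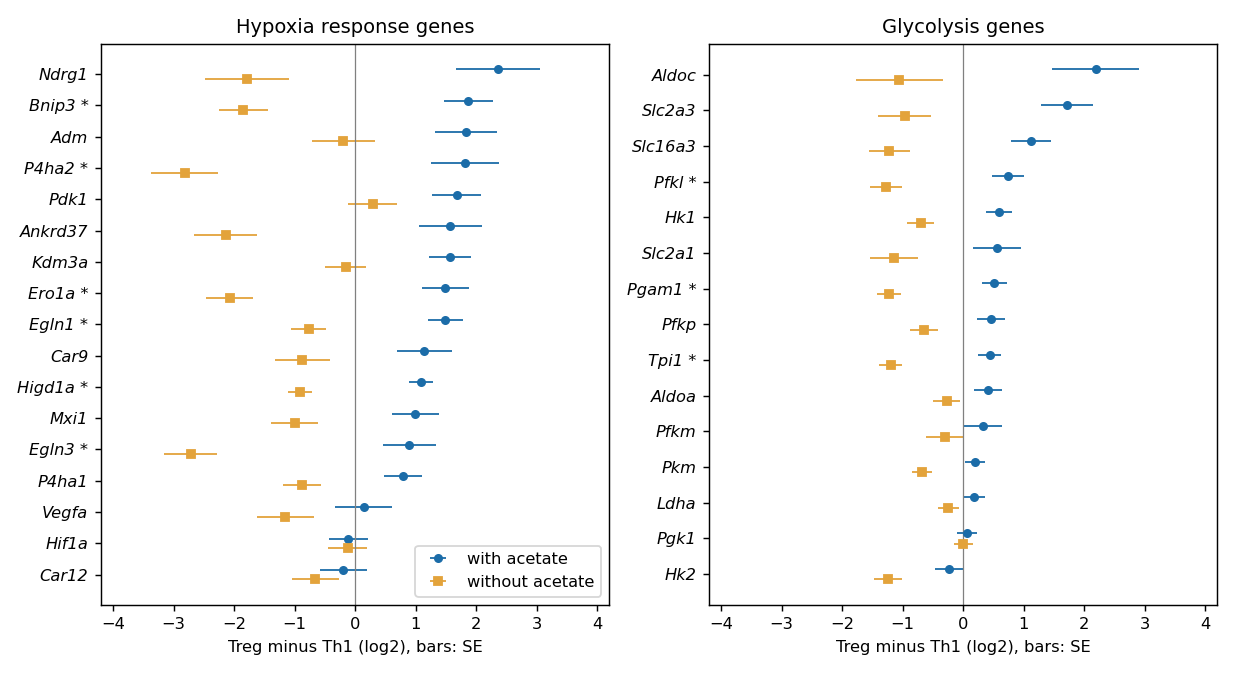
Treg minus Th1 log2 difference of 17 hypoxia response genes and 15 glycolysis genes with acetate (blue circles) and without (orange squares). Each group had 2 arrays. Bars are standard errors from the limma fit on all 14 arrays, and asterisks mark genes whose change was called. Most blue circles lie to the right of 0 and most orange squares to the left.

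Genes that sense or use acetate were read next. Ffar2, which encodes a cell surface receptor for short chain fatty acids, had signals of 129 and 227 in Treg and 281 and 100.2 in Th1 acetate cultures. The groups overlapped and the log2 difference was 0.02 ± 0.41. Without acetate Ffar2 was lower in Treg cultures, at 20.7 and 29.6 against 243 and 195 (-2.99, adjusted p = 0.00175), and the change of 3.01 did not pass (adjusted p = 0.0562). The genes of the enzymes that join acetate to coenzyme A, Acss1 in mitochondria and Acss2 in the cytosol and nucleus, had differences of 0.82 and 0.48, neither called. Acss1 was called without acetate at 2.13. Of 14 deacetylase genes, 1 was lower in Treg acetate cultures, where 0.192% of all genes were. This was Hdac2, a histone deacetylase gene at 191 and 158 against 312 and 347 (-0.91 ± 0.18, adjusted p = 0.0404). Its call was lost without either Treg acetate array and without Th1 acetate replicate 2, at adjusted p of 0.154, 0.408 and 0.255. Of 18 genes of the TCA cycle and fatty acid oxidation and 12 of acetate activation and lipogenesis none was called with acetate.

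Markers of other cell types were measured in the same arrays. Of 10 T cell identity genes none was called, and Cd3d and Thy1 were at 2604 or above in all 4 arrays. Of 7 B cell markers 1 was called higher, Ighm, where 0.478% of all genes were. The summed signal of the list was 925 and 1661 in Treg against 135 and 144 in Th1 acetate cultures. Ighm made up most of that sum. The other B cell genes Cd79a, Ms4a1, Pax5, Cd22 and Blnk were at 15.7 or below in each of the 4 arrays, and Cd79b, at 65.6 and 76.5 against 12.3 and 24.2, did not pass (1.86, adjusted p = 0.131). Cd8a was at 150.4 and 145 against 19.0 and 18.0, a difference of 2.81 that was not called (adjusted p = 0.0672), and that of Cd8b1 was 0.90. Of 7 mast cell and basophil markers 1 was called higher, where 0.478% of all genes were. This was the stem cell factor receptor gene Kit, at 21.7 and 20.6 against 1.70 and 0.506, while Tpsb2 and Ms4a2 were at 11.7 or below. No gene was called among 12 macrophage and dendritic cell, 5 NK cell, 7 neutrophil and 6 lymphoid stroma markers, nor between the 2 erythroid markers on the array. The part of other cells in the differences of Ighm, Gzma, H2-Ab1 (2.22) and H2-DMb2 (1.45), the last 2 being class II histocompatibility genes, was not tested.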

How the data were processed

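Arrays of the Affymetrix Mouse 430 2.0 type were hybridised with total RNA, per the labels' protocols. The authors deposited a linear-scale intensity for each probe set on each array. MAS5 is the tool that the submitters' processing notes name, and neither a version nor a scaling target is given in the sources used here. Detection calls were not used here. Of 45101 probe sets, 34958 carried exactly 1 symbol in the platform annotation, 932 several and 9211 none; 13 array controls among the first were left out, which left 34945. Symbols were looked up by Entrez identifier in a RefSeq gene table (34741 matched, 0 changed).

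Signals were transformed as log2(signal + 3) and quantile normalized over the 14 arrays. Limma 3.58.1 in R 4.3.3 fitted 6 group means on all 14 arrays (lmFit, eBayes with a trend, 8 residual degrees of freedom), and 3 contrasts were taken: Treg minus Th1 with acetate, without it, and the difference of those. Tests were two-sided, and adjusted p-values are Benjamini-Hochberg over all 34945 probe sets. A group left with 1 array was assumed to vary like the others. The procedure was tested on simulated data. Figures used Python 3.11.15 with matplotlib 3.10.9.

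Named genes are the 15 largest called differences in each direction with separate groups and a mean at or above the 40th percentile (a signal of about 7.20), the 8 largest in each direction called in both comparisons and among those called for the change, the 10 smallest p-values for the change, 11 preset genes and members of 45 gene lists. Other genes named, such as Cdkn2a, Slamf6, Isg20, Ms4a4b, H2-Ab1 and H2-DMb2, were chosen after their values were seen. The members, lists and tests were chosen with earlier results of these data known. For 0 called genes did a further probe set pass with the other sign. Further probe sets often did not pass at all, such as those of Egln1 (1.08, adjusted p = 0.374) and Higd1a (1.01, adjusted p = 0.357). Others passed, such as those of Atp6v0d2 (-3.18, adjusted p = 0.00326) and Selenbp1 (3.82, adjusted p = 0.0053). The labels name no scan date or batch. Alternatives covered scaling, the pseudocount, filters, a replicate block, the arrays in the fit and leaving out each array.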

Additional observations from a re-analysis of the deposited data

Results flagged for a closer look

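The lineage difference itself differed with acetate, by the test of that difference, in the following named genes. Values are the log2 difference Treg minus Th1 with acetate minus that without, with 2 arrays in each of 4 groups.

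The change was 6.50 for Il24, 3.77 for Cysltr1, 3.54 for Fcmr, 2.78 for Batf3 and 2.50 for H2-Q10, cytokine, receptor, transcription factor and histocompatibility genes that were lower in Treg cultures without acetate. It was 4.75 for Selenbp1, 4.71 for Plcxd1, 4.42 for Fam183b, 2.92 for Rab33a, 2.89 for 9130015A21Rik, 2.85 for Cox7a1 and 2.81 for Plcd1, which were called higher in Treg cultures with acetate and not called without it. Egln1 belongs with these at 2.26. Pcx, Bsg, Syce2 and Higd1a were called in opposite directions and changed by 2.55, 2.12, 2.04 and 2.00. Ms4a6b, a membrane protein gene of T cells, changed by -1.73. Its difference was 0.47 without acetate, not called, and -1.26 with it, called.

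Of these 18 genes, Il24 was called without each of the 8 arrays in turn and Syce2 without 5 of them. Cysltr1 and H2-Q10 were called without 4, Batf3 and Pcx without 3, Fcmr, Higd1a and Plcxd1 without 2 and the other 9 without 1. On the signals as deposited Il24 was called (adjusted p = 9.37e-05), and the other 17 had adjusted p from 0.05 to 0.252. The 0.05, for Cysltr1 and Plcxd1, is a rounded value at the threshold and does not tell whether they were called. As deposited, 6 probe sets were called for the change.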

How the results depend on the processing

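The 122 called genes kept their sign in each alternative tried (118 of them where low-signal probe sets were filtered out). Leaving out 1 array cannot change the sign where the groups do not overlap, so the kept sign does not show stability. The calls were not stable. The 189 probe sets called with acetate became 67 on signals as deposited (49.3% of them higher in Treg cultures, against 65.6%), 125 with 1 probe set per gene, 38 in a fit on the 8 Treg and Th1 arrays and 0 in a fit on the 4 arrays compared (limma; 3083 at an unadjusted p under 0.05), and ranged from 10 to 804 without single arrays. The 613 called without acetate (58.4% higher) became 240 as deposited (79.6% higher) and 288 on 8 arrays, and ranged from 110 to 381. For the change of the lineage difference, 66 became 6 as deposited and 10 on 8 arrays, with a range of 1 to 311. The 40 shared genes became 10 as deposited and 9 on 8 arrays, with a range of 5 to 96. Scaling to a common trimmed mean, pseudocounts of 1 and of the 50th percentile and the low-signal filter left all 4 counts within 1.5 times. On signals as deposited the median of all genes moved by -0.10. The alternatives for the comparison without acetate, and the 8-array fit with acetate, were added after seeing the data.

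Numbered replicates are not stated to be paired, and their deviations correlated at -0.06 with and -0.021 without acetate. With the replicate block 92 probe sets were called with acetate, 418 without, 11 for the change, and 28 genes were shared.

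Among genes that did not pass, signs reversed for H2-Q10 (-0.088), Il10 (-0.15) and Ffar2 (-0.15) as deposited, for Il17a scaled to the trimmed mean (0.14), without Treg acetate replicate 1 (0.23) and without Th1 acetate replicate 1 (0.03), for Il2 without Treg acetate replicate 1 (-0.088), and for Ffar2 without Treg acetate replicate 2 (-0.38) and without Th1 acetate replicate 2 (-0.71). Without single arrays these genes ranged from -0.25 to 0.23, -0.088 to 0.54 and -0.71 to 0.75. The causes were not tested. With 2 arrays in a group, signal near the bottom of the scale and the spread between the Th1 acetate arrays limit what could be called.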

Other observations

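Of 15 ribosome biogenesis genes none was called and none was positive, with a median log2 difference of -0.49, against -0.08 without acetate. Rrp9, a gene of ribosomal RNA processing, had signals of 90.3 and 75.8 in Treg and 145 and 370 in Th1 acetate cultures, and Nop56 had 740 and 495 against 685 and 2279. Th1 acetate replicate 2 was the highest array in both genes, and without it the median of the list was -0.16 with 2 members positive; 1 was positive without Treg acetate replicate 2. Of 10 amino acid transporters none was called or positive, with a median of -0.62 and of -0.32 without that array. Of the transporters 2 were positive without Th1 acetate replicate 2, 1 without Treg acetate replicate 2 and 1 when arrays were scaled to a common trimmed mean. Of 28 cell cycle genes none was called with acetate, and the median was -0.071 with 9 positive, but 0.33 with 26 positive without Th1 acetate replicate 2. The transporter gene Slc7a5 was at 433 and 302 against 572 and 880. Of 18 ATF4 target and stress genes 1 was called lower in Treg acetate cultures, where 0.192% of all genes were. This was Asns, which encodes asparagine synthetase, at 541 and 335 against 828 and 1186 (-1.21, adjusted p = 0.0442). Its call was lost without Treg acetate replicates 1 and 2 and without Th1 acetate replicate 2, where its difference was -1.56, -0.87 and -0.95.

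The membrane protein genes Ms4a4b, Ms4a6b and Ms4a6d were called lower in Treg acetate cultures, Ms4a4b at 1136 and 1497 against 3092 and 3182 (-1.26), Ms4a6b at -1.26 and Ms4a6d at -2.14. Ms4a4b and Ms4a6d lost the call without each of the 4 acetate arrays, and Ms4a6b without either Treg acetate array. Without acetate Ms4a4b and Ms4a6b had positive differences of 0.51 and 0.47 that did not pass. Of 9 serpin genes 2 were lower, Serpinb9b and Serpinb6b, where 0.192% of all genes were. Serpinb6b was at 816 and 965 against 3596 and 2919 (-1.86 ± 0.26, adjusted p = 0.00548). Its difference without acetate was 0.02. Serpinb9b lost its call when any of the 4 acetate arrays was left out, and Serpinb6b lost its call without either Treg acetate array (0.11 and 0.0524). The Ms4a genes were chosen after their values were seen.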
